A study of Mus musculus with 89 samples.

Results

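Immediate early genes are switched on within minutes of a stimulus without the need for new protein, and 10 of them were followed here by their gene symbols across 89 RNA-seq libraries of mouse hippocampus and choroid plexus. In neurons, calcium entry and growth factor signaling reach their promoters through the transcription factors CREB and SRF, and most of the transcripts are degraded soon after they are made, so their levels follow recent synaptic activity. The AP-1 members are Fos and Fosb, which dimerize with Jun proteins, and Junb, one of those Jun partners. Egr1, Egr2 and Egr4 are zinc finger transcription factors, Npas4 is a transcription factor of the basic helix-loop-helix PAS family that responds mainly to calcium entry in neurons, and Nr4a1 is an orphan nuclear receptor. Arc encodes a postsynaptic protein that acts in the removal of AMPA receptors from synapses, and Ier2 encodes a nuclear protein that is induced by growth factors in many cell types. The choroid plexus, a secretory epithelium around fenestrated capillaries, makes the cerebrospinal fluid and is not a neuronal tissue.

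All 10 genes were listed among 14964 genes of the Klotho mice and among 14440 genes of the hippocampus of infused mice. In the choroid plexus, 6 of the 10 were listed among 13662 genes, and Fosb, Egr2, Egr4 and Npas4 were not listed there. The tables hold CPM, the reads of a gene per 1000000 counted reads of its library. As recovered from these values, libraries held 23231524 to 46836730 counted reads. The Klotho mice comprised 4 α-Klotho knockouts (Klko) and their 4 wild types (WT-y), all 2 months old, and 5 α-Klotho heterozygotes (Klhet) and their 4 wild types (WT-o), all 9 months old. Their labels call the tissue brain, whereas the study's methods name the hippocampus, and the extraction text in the labels of all 89 libraries names cortex. The infused mice were aged wild types, male by the study's methods, whereas its figure legends state an equal distribution of sexes. They received 100 µL by tail vein every 3 days over 25 days. The infusion was young serum (YS), young serum depleted of extracellular vesicles (YDS), or saline (sham). The study reports that these mice also underwent object recognition and foot-shock fear conditioning, with the last injections given during testing. They were then anesthetized with Avertin and perfused before dissection. The part of behavioral testing and anesthesia in the levels of the 10 genes was not tested. Hippocampus was measured in 14 YS, 14 YDS and 10 sham mice and choroid plexus in 12 YS, 14 YDS and 8 sham mice, of which 34 gave both tissues. The arm of each infused mouse is taken from the column names of the deposited tables, because the sample labels do not state it.

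Kl itself was lower in all 4 Klko libraries (2.90 to 23.3 CPM) than in all 4 WT-y libraries (62.3 to 237 CPM), while 15.6 to 128 CPM in Klhet overlapped with 127 to 256 CPM in WT-o. A high sum of 9 striatal neuron markers set 4 libraries apart, Klko replicates 1 and 4 and replicate 2 of both WT-y and WT-o, and reached 2554 CPM in Klko replicate 4 and 1404 CPM in WT-y replicate 2, against 229 CPM in the lowest library. Among the infused mice, Ttr, the transthyretin transcript that marks choroid plexus epithelium, split the choroid plexus libraries by mouse number. Mice are named by their labels, in which H422 and C422 are the hippocampus and the choroid plexus of 1 mouse. Ttr was at 163015 to 235998 CPM in mice C401 to C418, except for sham mouse C410 at 119152 CPM, and at 102233 to 137424 CPM in mice C419 to C440. No label names a batch, and the split was chosen after the values were seen, so infusion results are given for all mice and within each range.

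To show where activity signals can act on these genes, the 250 bases before the transcription start are given for 4 members, taken from RefSeq on GRCm38.p6. Fos and Npas4 are the classical activity-regulated members, and Egr4 and Nr4a1 are members for which the serum arms are compared in detail further on. Capitals mark TGACG, the core of the cyclic AMP response element to which CREB binds, on either strand (CGTCA when read on the opposite strand), and, in Fos, the TATA motif TATAAA.
Fos (chr12:85473640-85473889, + strand): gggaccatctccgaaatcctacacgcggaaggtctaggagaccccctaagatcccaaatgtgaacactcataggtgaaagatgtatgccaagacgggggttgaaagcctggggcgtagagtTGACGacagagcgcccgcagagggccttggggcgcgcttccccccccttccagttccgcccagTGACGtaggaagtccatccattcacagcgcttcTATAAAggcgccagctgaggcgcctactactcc
Egr4 (chr6:85513590-85513839, - strand): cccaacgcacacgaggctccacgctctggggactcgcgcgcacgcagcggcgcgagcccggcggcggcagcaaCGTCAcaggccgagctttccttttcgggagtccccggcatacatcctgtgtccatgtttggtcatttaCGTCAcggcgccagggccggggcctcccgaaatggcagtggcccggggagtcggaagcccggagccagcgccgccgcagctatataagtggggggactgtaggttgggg
Nr4a1 (chr15:101266596-101266845, + strand): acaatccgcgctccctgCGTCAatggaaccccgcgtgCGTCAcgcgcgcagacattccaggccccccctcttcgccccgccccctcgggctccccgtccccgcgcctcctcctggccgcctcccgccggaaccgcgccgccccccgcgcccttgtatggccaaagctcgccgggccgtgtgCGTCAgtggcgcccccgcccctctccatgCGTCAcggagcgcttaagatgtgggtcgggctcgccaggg
Npas4 (chr19:4989972-4990221, - strand): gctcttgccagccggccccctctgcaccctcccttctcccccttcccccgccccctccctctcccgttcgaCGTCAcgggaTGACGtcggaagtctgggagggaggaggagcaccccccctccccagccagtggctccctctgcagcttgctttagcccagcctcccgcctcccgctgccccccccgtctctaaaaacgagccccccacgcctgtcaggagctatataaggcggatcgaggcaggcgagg
RefSeq gave 11 promoters for 7 of the 10 members in the table used, and Egr1, Arc and Ier2 had no entry. All 7 held TGACG on at least 1 strand in at least 1 promoter, against 17.8% of 32851 mouse promoters of the same length. Nr4a1 held 4 copies, which lay 40, 69, 213 and 233 bases before the start, and Npas4 held 2 copies close to each other, 169 and 179 bases before it. In Fos the copies lay 66 and 129 bases before the start and TATAAA, found in 12.4% of all promoters, lay 33 bases before it. The full palindrome TGACGTCA was in none of the 7 (1.55% of all promoters), and the CArG box, the motif bound by SRF, was in Egr2 alone (1.47% of all promoters). Only these 250 bases and exact forms of the motifs were searched, so sites farther upstream or of a variant form would be missed. A match of letters describes the window and not the binding of a factor.

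Levels of different genes were compared per kb of annotated exon. In the hippocampus of infused mice, the median CPM per kb was highest for Arc (60.2), Egr1 (43.2) and Junb (38.9), followed by Egr4 (21.8) and Nr4a1 (20.8). Fos (7.05), Ier2 (5.05), Fosb (3.36), Npas4 (2.86) and Egr2 (1.32) were low. Neighbours in this order overlapped across libraries, as Egr4 spanned 13.4 to 35.2 and Nr4a1 12.3 to 33.3 CPM per kb. The Klotho hippocampus gave a similar ranking, with Arc (60.3), Junb (42.0), Egr1 (34.5) and Egr4 (33.3) on top and Egr2 (1.41) last. In choroid plexus the order was different, with Nr4a1 (4.22) above Ier2 (1.47) and Junb (1.44), and with Fos (0.407), Egr1 (0.395) and Arc (0.197) at the bottom. Each of the 6 listed members had a higher CPM in hippocampus than in choroid plexus of the same animal in 34 of 34 mice. The median ratio was 341 for Arc and 98.7 for Egr1, but 4.71 for Nr4a1 and 3.40 for Ier2. The 2 tissues came as separate tables, so these levels are a description, and no test of level was made between tissues.

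The first comparison asked whether loss of α-Klotho changed these genes in young hippocampus, and no change of any of the 10 members was established. The 95% intervals of the log2 differences were wide, as for Arc (-2.15 to 0.45) and Egr2 (-2.39 to 0.87), so a change is not excluded. By limma across all genes, 0 of 10 members passed an adjusted p of 0.05, where 11.3% of all genes did. At an unadjusted p under 0.05, 1 member, Egr1, was lower, where 16.3% of all genes were. All 10 estimates were below 0, with a median log2 difference of -0.62, against -0.02 over all genes. This direction depended on 1 wild type: WT-y replicate 2 had the highest level of every member among all 17 libraries, and without it the median was -0.03. Fewer neurons or less RNA per neuron cannot be told apart from lower transcription in such bulk tissue.

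Arc had 49.3, 79.1, 283 and 127 CPM in Klko replicates 1 to 4, against 81.8, 886, 184 and 113 CPM in WT-y replicates 1 to 4. Its spread within either genotype was larger than the difference between them, and the groups overlapped. Fos had 7.63, 6.11, 35.3 and 20.9 CPM in Klko, against 10.9, 79.6, 29.4 and 10.1 CPM in WT-y. Klko replicate 3 was the highest of its group for Fos and Arc, and the other Klko libraries lay among or just below WT-y replicates 1, 3 and 4. Egr1 had 98.0, 81.9, 189 and 162 CPM in Klko, against 131, 567, 196 and 148 CPM in WT-y, a log2 difference of -0.78 (SE 0.37) with an adjusted p of 0.170 by limma and a two-sided exact permutation p of 0.229. Egr1 was the member closest to the threshold, and the exact p-values of the 10 members lay between 0.229 and 0.971. Npas4 had 8.41, 6.43, 14.5 and 14.9 CPM in Klko, against 4.71, 32.9, 21.9 and 12.7 CPM in WT-y. For Npas4 the lowest of all 17 libraries was also a wild type, WT-y replicate 1.

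Egr2, an early growth response gene known for its role in myelinating Schwann cells, spanned the widest range of any member, with 1.28, 0.967, 8.67 and 7.79 CPM in Klko, against 2.44, 37.2, 5.59 and 1.94 CPM in WT-y. Egr4 had 48.3, 45.2, 133 and 71.5 CPM in Klko, against 37.9, 212, 56.0 and 52.7 CPM in WT-y. All 4 Klko libraries lay above the lowest WT-y library for Egr4. Nr4a1 had 38.6, 40.9, 110 and 61.6 CPM in Klko, against 45.5, 278, 72.8 and 55.7 CPM in WT-y. Junb, Fosb and Ier2 showed the same arrangement, with Klko replicate 3 on top of its group and WT-y replicate 2 above every other library, at 242 CPM for Junb, 41.1 CPM for Fosb and 27.8 CPM for Ier2.

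**Figure D1:**
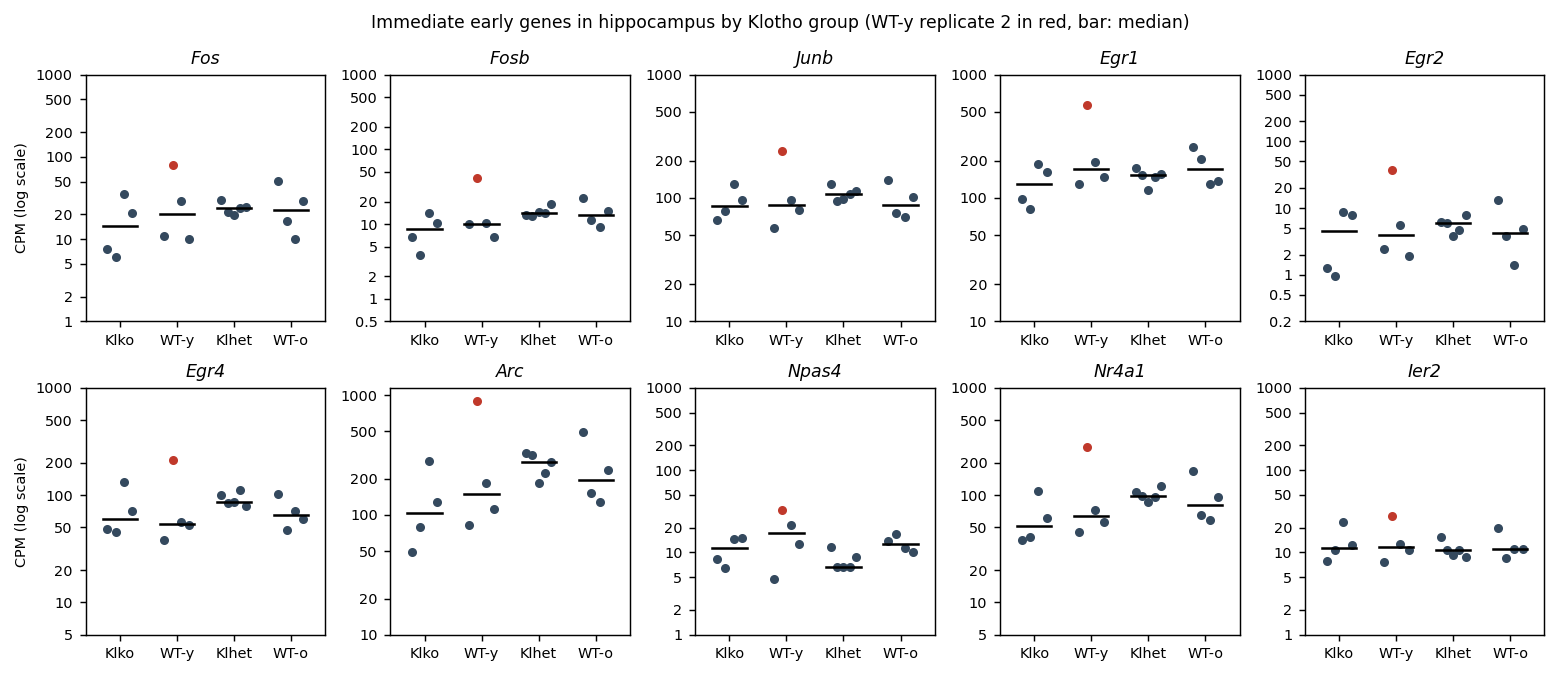
CPM (log scale) of the 10 immediate early genes in each library by Klotho group, with Klko left of WT-y and Klhet left of WT-o. Points are libraries, bars are group medians, and red marks WT-y replicate 2, which is the highest of the 17 libraries in all 10 panels.

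WT-y replicate 2 also differed in its markers. The sum of 8 markers of hippocampal principal neurons was 314 CPM, the lowest of all libraries, against a median of 808 CPM in WT-y, and the sum of 5 endothelial markers was the highest, at 230 CPM. The summed level of 7 general neuron markers in it, 10794 CPM, was within the range of the other libraries (9385 to 12923 CPM). Across the 17 libraries, Spearman's rho of the members with the principal neuron sum ranged between -0.60 and -0.12, with the striatal sum between 0.00 and 0.42, and with 4 blood markers between -0.75 and -0.29. The blood markers summed to 76.9 to 144 CPM in Klko and 78.6 to 175 CPM in WT-y, of which WT-y replicate 2 was the lowest. Their part in the result was not tested. Without the 4 libraries with striatal transcripts, the median of the members in Klko against WT-y was 0.15, on the other side of 0, and again no member passed.

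In 9-month-old mice, no change of a member was established in Klhet against WT-o, again with wide 95% intervals (Egr2 -1.26 to 1.83). By limma 0 of 10 passed the adjusted threshold, as did 0% of all genes, while 11.3% of all genes had an unadjusted p under 0.05 and none of the members did. DESeq2 called 6 genes and edgeR 0 in this comparison, of which none was a member. The median log2 difference was 0.14 over the members, and single values ranged between -0.66 and 0.43. Npas4 had the largest difference in size, with 11.7, 6.74, 6.63, 6.72 and 8.69 CPM in Klhet, against 13.8, 16.9, 11.4 and 10.0 CPM in WT-o. Klhet replicate 1 lay among the WT-o values and the other 4 Klhet libraries lay below all of them, with an adjusted p of 0.495 by limma and an exact permutation p of 0.0476. Arc had 329, 316, 184, 224 and 278 CPM in Klhet, against 496, 153, 129 and 237 CPM in WT-o, and Fos had 29.7, 21.4, 19.6, 24.0 and 24.9 CPM in Klhet, against 50.2, 16.5, 10.1 and 28.9 CPM in WT-o. Both genes were spread more widely among the WT-o libraries than among the Klhet libraries, and the ranges of Klhet lay inside those of WT-o. The difference between the 2 Klotho contrasts passed for 0 of 10 members (0% of all genes, 8.87% at an unadjusted p under 0.05). WT-o against WT-y, the comparison of ages, passed for 0 of 10 members as well, where 0.0468% of all genes did, and none had an unadjusted p under 0.05 (8.01% of all genes), with a median of -0.08 that became 0.49 without WT-y replicate 2.

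Some other genes, taken from lists of related responses that were drawn up with earlier results of these data known, passed in Klko against WT-y in the fit of all 4 groups. With only these 2 groups fitted, 0.134% of all genes passed, and of the genes named from these lists only the heat shock genes Hsph1 and Hsp90aa1 did. Of 41 further early response genes, 5 were lower in Klko and 0 higher, where 11.3% of all genes passed and 6.44% were lower. The share of this list that passed was thus close to that of all genes. The list's median log2 difference was -0.14. Homer1, whose short form is an activity-induced scaffold protein of the postsynapse, had 79.9, 68.5, 70.5 and 86.1 CPM in Klko, against 100, 153, 105 and 92.8 CPM in WT-y, a log2 difference of -0.54 with an adjusted p of 0.0192. Dusp6, a phosphatase that limits ERK signaling, had 21.9, 32.3, 45.5 and 38.9 CPM in Klko, against 54.2, 90.2, 56.1 and 52.3 CPM in WT-y (-0.87, adjusted p 0.0131). In both genes every Klko library was below every WT-y library, and the share of all genes without overlap in this comparison was not computed. Klf10, a zinc finger factor, fell by 0.68 on the log2 scale, Fosl2, an AP-1 member, by 0.85, and Nr4a2, an orphan nuclear receptor related to Nr4a1, by 1.06. Without WT-y replicate 2, all 5 passed again, but 8 of 41 were then lower and 3 higher, where 25.9% of all genes passed and 15.3% were lower, and the median of the list was 0.02. Without the 4 libraries with striatal transcripts, 4 early response genes were lower and 5 higher, where 21.8% of all genes passed and 13.7% were lower, and Homer1, Dusp6 and Nr4a2 were among the lower ones while Fosl2 (adjusted p 0.122) and Klf10 (adjusted p 0.109) were not.

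Of 16 late response genes, which are induced after the immediate early proteins, 4 were lower and 0 higher, where 6.44% of all genes were lower, with a list median of -0.27. Pcsk1, a convertase of neuropeptide precursors, had 10.7, 6.91, 10.8 and 9.15 CPM in Klko, against 14.2, 19.5, 22.9 and 17.1 CPM in WT-y, with no overlap, a log2 difference of -0.93 and an adjusted p of 0.00450. Rasgrp1, an exchange factor for Ras, fell by 0.56, Bdnf, the neurotrophin, by 0.54, and Dclk1, a kinase of the doublecortin family, by 0.28. These 4 passed again without WT-y replicate 2, where 15.3% of all genes were lower, and without the 4 libraries with striatal transcripts Bdnf did not (adjusted p 0.0581), where 13.7% of all genes were lower. In each of these 2 fits 1 late response gene was higher. Of 27 genes of the upstream pathway, Crebbp (-0.31), the coactivator of CREB, and Creb1 (-0.30) were lower and Mapk3 (0.44), which encodes ERK1, was higher. These 3 of 27 compare with 11.3% of all genes called, and Crebbp did not pass without the 4 libraries with striatal transcripts (adjusted p 0.0641). Of 10 heat shock chaperone genes, 4 were lower, where 6.44% of all genes were, namely Chordc1 (-1.02), Hsph1 (-0.84), Hsp90aa1 (-0.60) and Fkbp4 (-0.30, adjusted p 0.0488), and the sum of the list was 822 to 909 CPM in Klko and 1199 to 1464 CPM in WT-y. Fkbp4 did not pass without WT-y replicate 2 (adjusted p 0.0697) or without the libraries with striatal transcripts (adjusted p 0.127). Of 10 glucocorticoid targets 1 passed, Sult1a1, a sulfotransferase, which was higher (0.97), where 11.3% of all genes passed. No gene of these lists passed in any of the other comparisons of all mice.

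The second experiment compared infusions, and in the hippocampus the members were lower on average after YS than after YDS, without passing the adjusted threshold. By limma 0 of 10 members passed in YS against YDS, as did 0% of all genes, and edgeR called 0 genes and DESeq2 1 gene, which was no member. All 10 estimates were below 0, with a median log2 difference of -0.36, against -0.01 over all genes. At an unadjusted p under 0.05, 8 of 10 members were lower, where 5.05% of all genes were lower and 1.24% higher. The members are correlated across libraries, so these 8 are not 8 separate observations. The 8 were Fos, Junb, Egr1, Egr2, Egr4, Arc, Nr4a1 and Ier2.

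Egr4 ranged between 28.8 and 66.5 CPM in YS with a median of 39.6, against 40.6 to 75.6 CPM in YDS with a median of 49.7. The log2 difference was -0.37 (SE 0.11, 95% interval -0.59 to -0.15, unadjusted p 0.00148, adjusted p 0.737), and the arms overlapped. Arc ranged between 112 and 282 CPM in YS with a median of 169, against 155 to 340 CPM in YDS with a median of 216, a log2 difference of -0.46 (SE 0.15). Between these arms, the lowest libraries of both genes were YS and the highest YDS. Fos ranged between 2.89 and 33.6 CPM in YS with a median of 13.1, against 9.11 to 23.7 CPM in YDS with a median of 17.2, a log2 difference of -0.58 (SE 0.23). Thus YS held both the lowest and the highest Fos level of the 38 libraries, the highest being YS mouse H422, which was also the highest for Fosb and Ier2. Nr4a1 (-0.38), Junb (-0.35), Ier2 (-0.36), Egr1 (-0.22) and Egr2 (-0.58) had estimates on the same side. Fosb (-0.09, 95% interval -0.41 to 0.22) and Npas4 (-0.26, -0.59 to 0.07) had intervals that included 0.

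In YS against sham, 0 of 10 members passed (0.0346% of all genes did), and 4 of 10 were lower at an unadjusted p under 0.05, where 9.71% of all genes were. These were Fos (-0.67, adjusted p 0.165), Egr4 (-0.31, adjusted p 0.164), Junb (-0.29) and Ier2 (-0.38). In sham mice, Fos ranged between 9.38 and 31.4 CPM with a median of 20.1, and Egr4 between 31.7 and 72.4 CPM with a median of 51.3. In YDS against sham, 0 of 10 passed under either threshold, where 0% of all genes passed the adjusted one and 12.4% the unadjusted one, with a median of 0.05 and values between -0.15 and 0.33. Among mice H401 to H418, 25.5% of all genes passed the adjusted threshold in YS against sham and 12.8% in YDS against sham, and 0 of 10 members did in either. The sham mice of this range were H405 to H410, with 23231524 to 27647628 counted reads. The YS mice had 31088093 to 40801000 and the YDS mice 26063533 to 34816151 counted reads. Sham was thus tied to mouse number and, against YS, to depth, and the part of either in these shares was not tested. Fos had the 1 unadjusted p under 0.05 in both comparisons, at -0.50 in YS (adjusted p 0.0680, 25.4% of all genes lower) and -0.51 in YDS (17.6% of all genes lower). Among mice H419 to H440, Egr4 (-0.56) and Egr1 (-0.40) had such a p in YS against sham, where 5.39% of all genes were lower, and Junb (0.30), Egr2 (0.66) and Nr4a1 (0.41) were higher in YDS than in sham at that p, where 5.93% of all genes were. Thus the Fos estimate was below 0 for both serum arms in the first range. YS libraries enter 2 of the 3 comparisons, so a lower level in them was not observed separately.

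**Figure D2:**
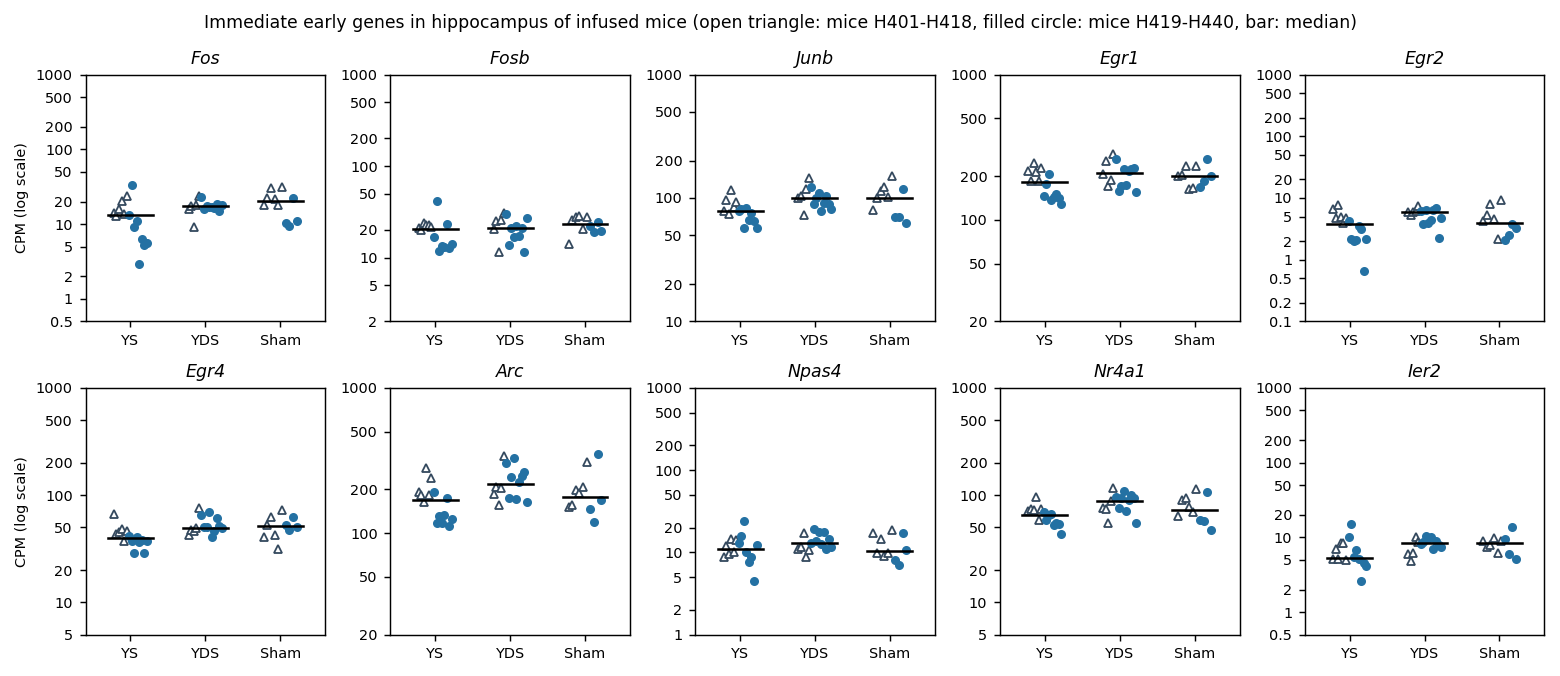
CPM (log scale) of the 10 members in the hippocampus of infused mice, by arm, with YS left of YDS and sham on the right. Open triangles are mice H401 to H418, filled circles mice H419 to H440 and bars medians, and the YS circles of Egr4 lie between 28.8 and 41.5 CPM.

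The lower level in YS was seen among mice H419 to H440. There, 8 of 10 members were lower in YS than in YDS at an unadjusted p under 0.05, where 2.13% of all genes were, with a median of -0.53, and 0 of 10 passed the adjusted threshold. Egr4 ranged between 28.8 and 41.5 CPM in 8 YS mice with a median of 37.4, against 40.6 to 69.1 CPM in 9 YDS mice with a median of 49.98. Only YDS mouse H431 lay within the YS range, and the log2 difference was -0.56 (SE 0.10, adjusted p 0.114). The 4 sham mice of this range had 47.8 to 62.8 CPM of Egr4, above all 8 YS mice. Egr4 was the 1 of 10 members without overlap there, and the share of all genes without overlap was not computed. Arc ranged between 112 and 192 CPM in YS with a median of 128, against 164 to 327 CPM in YDS with a median of 244 (-0.76, SE 0.18). Fos had a median of 7.70 CPM in YS and 17.2 CPM in YDS (-1.005, SE 0.29), although YS mouse H422 stood at 33.6 CPM.

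Among mice H401 to H418, with 6 YS and 5 YDS mice, 0 of 10 members had an unadjusted p under 0.05 (2.87% of all genes were lower), and the median was -0.08. Egr4 ranged between 37.0 and 66.5 CPM in YS with a median of 45.7, against 42.5 to 75.6 CPM in YDS with a median of 47.0. Fos had medians of 14.8 CPM in YS and 17.2 CPM in YDS, and a log2 difference of 0.02. The ranges of both arms overlapped here. The difference between the 2 ranges of mouse numbers had an unadjusted p under 0.05 for 3 members, Fos (-1.02), Arc (-0.71) and Egr4 (-0.44), where 2.21% of all genes had one, and an adjusted p of 1.00 for each. Over all mice the neuron markers overlapped between arms, as the sum of 7 neuron markers was 11607 to 13937 CPM in YS, 11489 to 14493 CPM in YDS and 11630 to 13435 CPM in sham, and the sum of 8 principal neuron markers had medians of 1023, 1028 and 936 CPM in that order of arms. Among mice H419 to H440, the principal neuron sum was 899 to 1050 CPM in YS and 851 to 1134 CPM in YDS, which overlapped, against 1062 to 1187 CPM in sham, above all 8 YS mice. Its part in the comparison with sham was not tested. Markers of choroid plexus epithelium, of which 7 of 13 were listed, moved with arm over all mice. At an unadjusted p under 0.05, 4 of these 7 were higher in YS than in YDS, where 1.24% of all genes were, with a median log2 difference of 0.67. They summed to 134 to 2784 CPM in YS with a median of 184, 93.8 to 415.3 CPM in YDS with a median of 160 and 99.96 to 598 CPM in sham with a median of 180, and the highest library was YS mouse H423. The part of this sum in the difference between arms was not tested.

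In the choroid plexus, the members stood on the other side. After YS, 5 of the 6 listed members were higher than after YDS at an unadjusted p under 0.05, where 6.98% of all genes were higher and 0.527% lower. The median log2 difference was 0.57, against 0.01 over all genes, and by limma 0 of 6 passed the adjusted threshold, as did 0% of all genes. On the reads recovered from the CPM values, edgeR called Egr1 and Fos among 400 genes and DESeq2 called Egr1, Fos and Arc among 563 genes. The edgeR calls rested on YS mouse C422, since without it Fos (adjusted p 0.236) and Egr1 (adjusted p 0.0574) no longer passed among 328 genes.

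Egr1 ranged between 1.38 and 29.3 CPM in YS with a median of 3.01, against 0.675 to 5.04 CPM in YDS with a median of 1.55, a log2 difference of 1.13 (SE 0.33, unadjusted p 0.00145, adjusted p 0.302). Fos ranged between 0.816 and 7.98 CPM in YS with a median of 1.18, against 0.303 to 1.87 CPM in YDS with a median of 0.770 (0.71, SE 0.23, adjusted p 0.302). The highest level of both genes was that of YS mouse C422. Arc ranged between 0.135 and 5.32 CPM in YS with a median of 0.636, against 0.112 to 1.18 CPM in YDS with a median of 0.364 (0.70, SE 0.25). For Arc the highest library was another one, YS mouse C421. Junb had medians of 3.91 CPM in YS and 2.40 CPM in YDS (0.43, SE 0.19), and Ier2 of 2.92 CPM in YS and 1.92 CPM in YDS (0.42, SE 0.17). Nr4a1, the member with the highest level per kb in this tissue, did not separate the arms, with medians of 14.7 CPM in YS and 14.8 CPM in YDS (0.08, 95% interval -0.17 to 0.33).

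In YS against sham, Fos (0.56) and Ier2 (0.41) had an unadjusted p under 0.05, where 1.97% of all genes were higher, and 0 of 6 passed the adjusted threshold (0% of all genes). Sham mice had medians of 0.957 CPM for Fos, 2.00 CPM for Egr1 and 0.728 CPM for Arc. For Arc this was above the median of YS mice. Within the ranges, such a p was found for Ier2 among mice C401 to C418 (0.40, 6.59% of all genes higher) and for Junb among mice C419 to C440 (0.70, 5.22% of all genes higher). In YDS against sham, no member had an unadjusted p under 0.05 (1.43% of all genes had one), nor within mice C401 to C418 (11.2% of all genes higher, 1.06% lower) or mice C419 to C440 (4.97% higher, 2.20% lower). As in the hippocampus, the difference of YS against YDS was seen among mice C419 to C440, where 5 of 6 members were higher at an unadjusted p under 0.05 with a median of 0.75, but here 14.3% of all genes were higher as well. Among mice C401 to C418, 0 of 6 had such a p (0.337% of all genes were higher), with a median of 0.24. The difference between the 2 ranges had no unadjusted p under 0.05 for any member (6.62% of all genes had one).

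**Figure D3:**
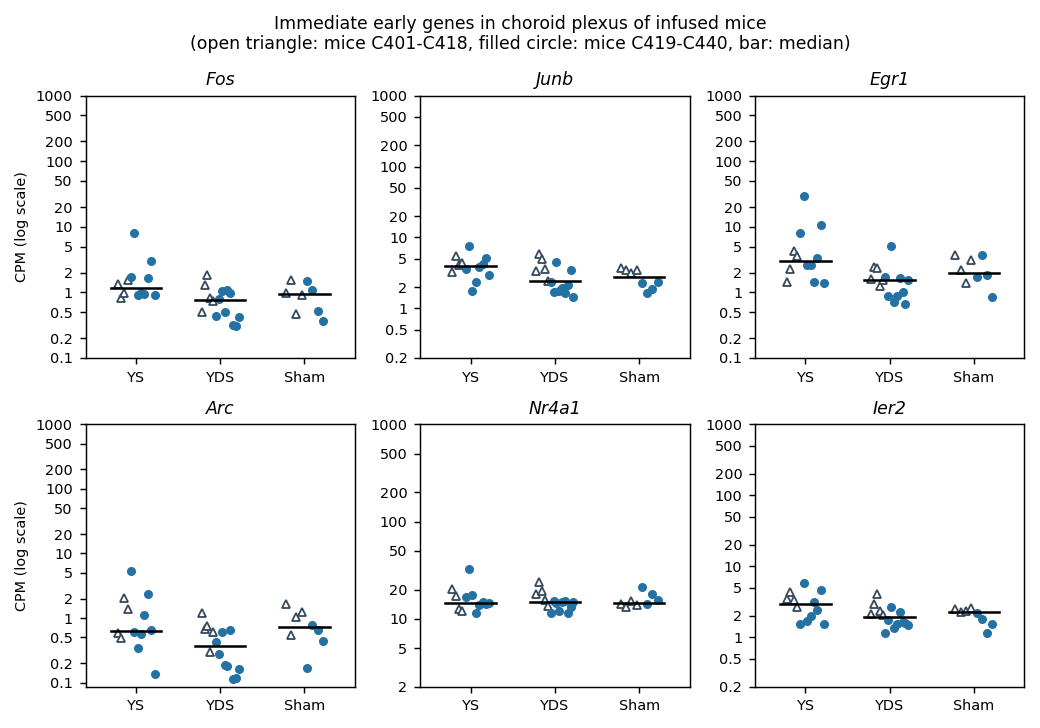
CPM (log scale) of the 6 members listed in choroid plexus, by arm, with YS left of YDS and sham on the right. Open triangles are mice C401 to C418, filled circles mice C419 to C440 and bars medians, and the highest point of Fos and of Egr1 is YS mouse C422 at 7.98 and 29.3 CPM.

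Markers of several cell types of neighbouring tissue moved with arm in the choroid plexus. At an unadjusted p under 0.05, all 5 listed neuron markers, 5 of 5 astrocyte, 5 of 5 oligodendrocyte and 5 of 6 microglia markers were higher in YS than in YDS, where 6.98% of all genes were, while 0 of 13 choroid plexus epithelium markers were. The median log2 differences were 0.95, 1.54, 0.76 and 0.65 in that order of cell types and -0.05 for the epithelium. Of other lists, 2 of 2 interneuron, 1 of 5 striatal, 1 of 5 endothelial and 1 of 4 mural markers were higher. Of 8 hippocampal principal neuron markers only 3 were listed, and 0 of these were higher, with a median of -0.05. With so few of them listed, these markers cannot show whether principal neuron RNA moved with arm. The 5 listed of 7 neuron markers summed to 20.2 to 353 CPM in YS with a median of 29.5, 14.9 to 45.5 CPM in YDS with a median of 19.2 and 10.8 to 50.9 CPM in sham with a median of 28.7, and Rbfox3 and Nefl were not listed. The sum of 5 astrocyte markers had medians of 149 CPM in YS, 56.7 CPM in YDS and 62.3 CPM in sham, and among mice C419 to C440 of 327 CPM in YS, 60.7 CPM in YDS and 62.3 CPM in sham. The oligodendrocyte sum had medians of 155 CPM in YS, 106 CPM in YDS and 135 CPM in sham, and the microglia sum of 134 CPM in YS, 115 CPM in YDS and 126 CPM in sham. Spearman's rho of the 6 members with the neuron sum ranged between -0.07 and 0.75 over 34 libraries. With the sum of the 3 listed principal neuron markers it ranged between -0.54 and -0.22. In YS mouse C421, the neuron sum of the choroid plexus reached 3.05% of that in its hippocampus and Arc 2.77%, while the medians over 34 mice were 0.219% for the neuron sum and 0.293% for Arc. The median shares of the single neuron markers spanned 0.04996% for Slc17a7 to 0.924% for Syt1. The median shares of the other members were larger, with 1.01% for Egr1, 3.29% for Junb, 6.35% for Fos, 21.2% for Nr4a1 and 29.4% for Ier2. In YS mouse C422, which had the highest Fos and Egr1, the neuron sum was 0.197% of the hippocampal one, whereas Arc reached 0.524%, Egr1 16.6% and Fos 23.8%. The part of neuronal, astrocyte, oligodendrocyte or microglial RNA in the difference between arms was not tested.

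Because both tissues came from the same mice, the difference between them could be tested per animal. For each of 34 mice the log2 level in choroid plexus was subtracted from that in hippocampus, and this difference was compared between arms over 12609 genes listed in both tissues. In YS against YDS, 6 of 6 members had a negative estimate with an unadjusted p under 0.05, where 7.28% of all genes had such a p in either direction, and 0 of 6 passed the adjusted threshold (0% of all genes). The estimate was -1.39 for Fos (SE 0.30, 95% interval -1.998 to -0.79, adjusted p 0.109), -1.23 for Arc (SE 0.26, adjusted p 0.109) and -1.39 for Egr1 (SE 0.34). Junb (-0.81), Ier2 (-0.79) and Nr4a1 (-0.47) were smaller. Without mouse C422, 5 of 6 had such a p (7.17% of all genes), and Nr4a1 did not. In YS against sham, 4 of 6 had a negative estimate with an unadjusted p under 0.05 (5.86% of all genes had such a p), Fos (-1.24), Egr1 (-0.91), Ier2 (-0.79) and Junb (-0.77), and 0 of 6 passed the adjusted threshold. In YDS against sham, Arc (0.66) had an unadjusted p under 0.05 and the other 5 did not, where 2.06% of all genes had one.

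Within mice C419 to C440, Fos passed the adjusted threshold, with a log2 difference of -1.998 (SE 0.32, 95% interval -2.67 to -1.32, adjusted p 0.0431). It was the 1 gene of 12609 to do so (0.00793%), while 13.4% of all genes had an unadjusted p under 0.05. Arc (-1.65, adjusted p 0.0661) and Junb (-1.06, adjusted p 0.0979) followed. Without mouse C422 the Fos difference was of the same size (-1.996, SE 0.35), but its adjusted p was 0.110 and 0 genes passed. Within mice C401 to C418, 0 of 6 had an unadjusted p under 0.05 (3.17% of all genes had one), and Fos had -0.22 (SE 0.39).

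**Figure D4:**
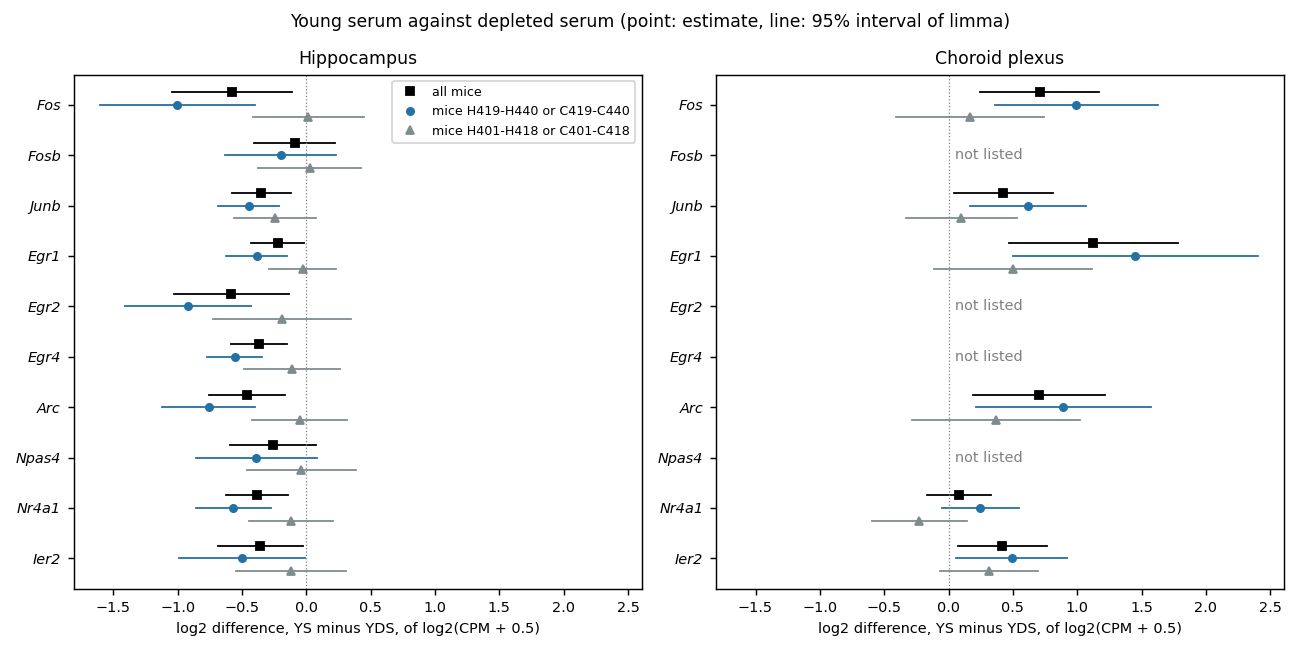
Log2 difference of YS minus YDS on the log2(CPM + 0.5) scale for each member in hippocampus (left) and choroid plexus (right), for all mice (squares), mice H419 to H440 or C419 to C440 (circles) and mice H401 to H418 or C401 to C418 (triangles). Points are limma estimates and lines 95% intervals, and for all mice the 10 hippocampal estimates lie below 0 and the 6 choroid plexus estimates above it.

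The members varied together from mouse to mouse within a tissue. The share of pairs of other genes that would pass was not computed, so the counts below do not show a trait particular to the members. In the Klotho hippocampus, with each group centred on its mean, 40 of 45 pairs had an adjusted permutation p under 0.05 for Spearman's rho over 17 libraries, with a median rho of 0.78 and a median Pearson's r of 0.90. The tightest pair was Egr2 and Nr4a1 (rho 0.95) and the loosest Fosb and Npas4 (0.44). Without WT-y replicate 2, 25 of 45 pairs passed with a median rho of 0.71, and without the 2 libraries farthest from the median, 36 passed. In the hippocampus of infused mice, 38 of 45 pairs passed over 38 libraries, with a median rho of 0.54 and a median r of 0.54, and 34 passed without the 2 farthest libraries. Junb and Nr4a1 were the tightest pair (0.86), and Fosb and Npas4 were again the loosest (-0.12). With each arm centred on its mean 29 pairs passed (median rho 0.50), among mice H401 to H418 alone 11 of 45 (0.44) and among mice H419 to H440 alone 31 of 45 (0.56).

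Npas4 followed the other members least. Its median rho with the other 9 was 0.57 in the Klotho hippocampus, where 4 of 9 pairs passed, and 0.33 in the hippocampus of infused mice, where 5 of 9 pairs passed and 0 of 9 with arms centred. Ier2 was close to it among infused mice, with a median rho of 0.35, where 6 of 9 pairs passed and 3 of 9 with arms centred. Nr4a1 had the highest median rho in both tables, 0.91 and 0.67. In the choroid plexus, 10 of 15 pairs passed over 34 libraries, with a median rho of 0.49 and a median r of 0.51, and 10 passed without the 2 farthest libraries. Junb and Ier2 were the tightest pair (0.78). Here Nr4a1 stood outside, since 0 of its 5 pairs passed and its median rho was 0.12. With arms centred 5 of 15 pairs passed (0.36), among mice C419 to C440 alone 4 of 15 (0.40) and among mice C401 to C418 alone 0 of 15 (0.33). These values are over libraries that share depth and dissection, and rho of the members with counted reads ranged between -0.28 and 0.09 in the Klotho hippocampus, -0.24 and 0.00 in the hippocampus of infused mice and -0.49 and -0.09 in the choroid plexus.

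**Figure D5:**
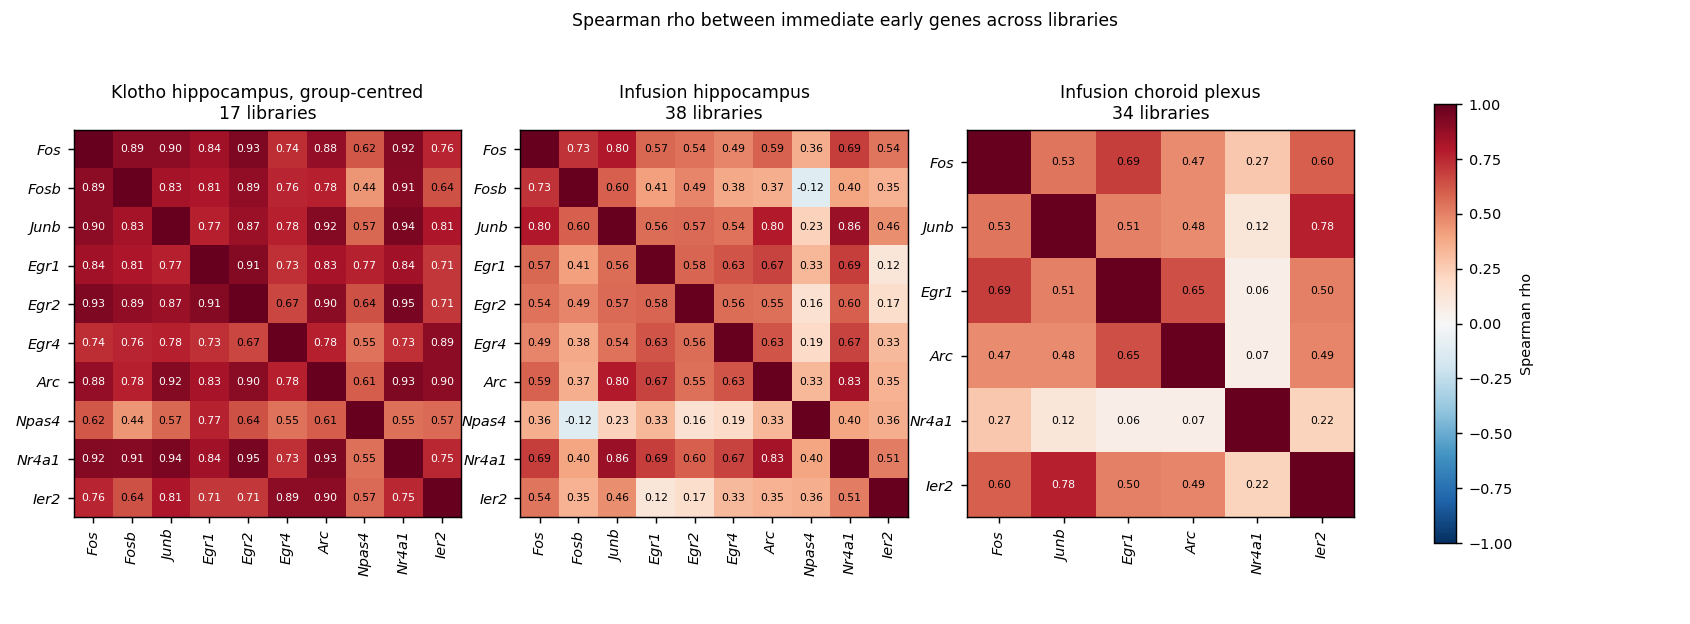
Spearman's rho between members over 17 Klotho libraries centred on group, 38 hippocampal and 34 choroid plexus libraries of infused mice, with red for positive and blue for negative values. The row of Npas4 has the lowest median rho in both hippocampal panels (0.57 and 0.33), with Ier2 close to it among infused mice (0.35). The row of Nr4a1 is dark in the hippocampal panels (median rho 0.91 and 0.67) and pale in the choroid plexus (0.12).

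The genes whose levels were most like those of the members differed between tissues. By mean rho with the members among genes with a mean of at least 1 CPM, the nearest in the hippocampus of infused mice were Midn (0.51), Arl4d (0.49), Per1 (0.49), Dusp1 (0.48) and Nfil3 (0.47), followed by Nr4a2, Mex3d, Ier5, Ldhb and Dnajb1. Per1 encodes a clock protein, Dusp1 a phosphatase of MAP kinases, Nfil3 a basic leucine zipper factor and Dnajb1 a heat shock cochaperone. In the Klotho hippocampus they were Spry4 (0.85), an inhibitor of receptor tyrosine kinase signaling, Dusp1 (0.82), Msl1 (0.80), Rita1 (0.78) and Mast2 (0.78), followed by Fuom, Gatsl2, Hdac5, Stk40 and Fgd6. Dusp1 was thus among the nearest 10 in both hippocampal tables. In the choroid plexus they were Nrxn2 (0.57), a presynaptic adhesion protein, Ajm1 (0.57), Sez6l2 (0.57), Cd14 (0.57), a coreceptor for lipopolysaccharide on myeloid cells, and Tmem151a (0.56), followed by Grk3, Dnm1, Ap1s1, Bcl3 and Shank3. Dnm1 encodes the neuronal dynamin and Shank3 a postsynaptic scaffold protein.

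Whether a mouse with a high level in one tissue also had a high level in the other was asked for the 6 shared members over 34 mice. For 0 of 6 did the permutation p pass after adjustment over the 6. Nr4a1 had the largest value in size (rho -0.34, permutation p 0.0491, adjusted 0.295, Pearson's r -0.31, permutation p 0.0698), and the other 5 had rho between -0.24 and 0.02. Without the 2 mice farthest from the median, r was -0.34 for Nr4a1 (permutation p 0.0564) and -0.41 for Ier2 (permutation p 0.0185, adjusted 0.111). With each arm centred on its mean, rho of Nr4a1 was -0.35 (permutation p 0.0396, adjusted 0.238) and the other 5 lay between -0.07 and 0.30, and 0 of 6 passed after adjustment. Within mice H401 to H418 its rho was -0.55 (permutation p 0.0551) and within mice H419 to H440 it was -0.19 (permutation p 0.406), and no member passed in either range.

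Among 40 further early response genes in the hippocampus of infused mice and 36 in the choroid plexus, 0 passed in YS against YDS. In the hippocampus 4 were lower at an unadjusted p under 0.05 (5.05% of all genes), among them Gadd45b (-0.51), an activity-induced regulator of DNA demethylation, and Plk3 (-0.38), a kinase, and the median of the list was -0.13. In the choroid plexus 5 were higher (6.98% of all genes), among them Gadd45b (0.67) and Ier3 (0.46), an early response gene of survival signaling, and the median of the list was 0.11. In YS against sham, 8 of 40 were lower in the hippocampus at an unadjusted p under 0.05, where 9.71% of all genes were, and the lowest adjusted p-values by limma were 0.0740 for Ier5 (-0.37), a regulator of heat shock factor, and 0.0744 for Gadd45g (-0.87).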

How the data were processed

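RNA was sequenced as 1 library per mouse and tissue, 89 in all. After alignment to mm10, the authors ran featureCounts and deposited the CPM values from edgeR. The study normalized library sizes in edgeR, and whether its scaling factors entered the deposited values was not checked. A constant per library yields whole reads with or without such factors, so the counted reads may be scaled library sizes. The authors' fold change, p-value and FDR columns were not used. Symbols that a spreadsheet had turned into dates (23, 21 and 19 in the tables of Klotho mice, hippocampus and choroid plexus) were restored, and 3 entries of the Klotho table with repeated symbols were left out. The values were log2(CPM + 0.5), which understates differences of low genes, and were fitted by limma 3.58.1 with trend in R 4.3.3, with the 4 Klotho groups in 1 fit and the 3 infusion arms in 1 fit per tissue. Tests were two-sided, with Benjamini-Hochberg adjustment across every gene of a table and a threshold of 0.05. Exact permutation tests were used for single members in Klotho mice and 100000 permutations for correlations, adjusted within a table. Below 2000 reads, 100% of the deposited values of each library came out as whole reads with a tolerance of 0.05 reads, at 23231524 to 46836730 reads per library, and edgeR 4.0.16 and DESeq2 1.42.0 were run on these reads as alternatives, besides other pseudocounts, a filter, TMM and RLE factors, fits of 2 groups and leaving out libraries. Lengths came from GENCODE vM21. The rule for named genes was to name all 10 members in each comparison and, of each list, up to 5 past the threshold by smallest p or otherwise the 2 with the smallest p. It was kept for the pathway lists in Klko against WT-y, while other comparisons with no call give some members and lists by counts, medians and ranges alone. The members and lists were chosen with earlier results of these data known, and the mouse number ranges, the tissue difference per mouse and the libraries left out by name were chosen after seeing the values. The labels do not say more of the mice than separate samples, so p-values measure the spread between these samples. The limma fit and the permutation test of correlations were tried on simulated data. In the simulation for limma, genes were independent and changed by more than most members did here. Recovery of smaller differences or of correlated genes was therefore not examined.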

Additional observations from a re-analysis of the deposited data

Results flagged for a closer look

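In groups of 4 to 10 libraries, a library far from the others was looked for in 56 groups of members, by its gap to the nearest library over the whole range, and was found in 7. The gaps were taken on CPM and not on the log2 scale of the tests. The critical values hold for normally distributed values, and CPM is skewed toward high values. A rate by chance is therefore not given, and whether the flags hold on the log2 scale was not tested. WT-y replicate 2 was the library in 6 of them, at 41.1 CPM of Fosb, 567 CPM of Egr1, 37.2 CPM of Egr2, 212 CPM of Egr4, 886 CPM of Arc and 278 CPM of Nr4a1, with gaps of 0.849 to 0.897 of the range against a critical value of 0.829. These genes vary together, so the 6 are not separate observations. Klhet replicate 5 had 18.6 CPM of Fosb, with a gap of 0.742 against a critical value of 0.710.

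Fos was the member for which the arms differed between tissues beyond the adjusted threshold, with a log2 difference of -1.998 (adjusted p 0.0431 by limma, and 0.110 without mouse C422) for hippocampus minus choroid plexus in YS against YDS among mice C419 to C440. The range of mouse numbers was chosen after the values were seen.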

How the results depend on the processing

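Counts of members past the adjusted threshold were recomputed under 163 alternatives and 160 of these were the same. In YS against YDS in choroid plexus the count was 2 with edgeR (Egr1 1.80 and Fos 1.22 on the log2 scale), 3 with DESeq2 (Egr1 1.80, Fos 1.22 and Arc 1.53) and 0 with edgeR without YS mouse C422 (Egr1 1.14 and Fos 0.71). For hippocampus minus choroid plexus it was 1 among mice C419 to C440 and 0 there without mouse C422. The pairs that passed were 25 of 45 in the Klotho hippocampus without WT-y replicate 2, 11 of 45 in the hippocampus among mice H401 to H418, and in choroid plexus 5 of 15 with arms centred, 0 among mice C401 to C418 and 4 among mice C419 to C440, where fewer mice enter the last 2. Of 20 member results with an unadjusted p under 0.05, the sign changed in 1, Fos in the hippocampus of mice H401 to H418 (0.0157), and of the 68 others it changed in 49 under some alternative. Replicate numbers in the Klotho labels did not pair the mice, with correlations of deviations between -0.48 and 0.02, and with a replicate block 0 of 10 members passed in Klko against WT-y, while 777 genes passed in place of 1687. That number was 20 with only these 2 groups fitted, 464 to 3879 with 1 library left out (464 without WT-y replicate 1 and 3879 without WT-y replicate 2) and 3256 without the 4 libraries with striatal transcripts, with 0 members in each, and the cause was not tested. In WT-o against WT-y, 7 genes passed by limma, 0 with a replicate block or only 2 groups fitted, 117 by DESeq2, 583 without WT-y replicate 2 and 979 without the striatal libraries, and in Klhet against WT-o 0 by limma, 6 by DESeq2 and 8 without Klhet replicate 1, again with 0 members. The median over members in Klhet against WT-o was -0.15 without WT-o replicate 3 and 0.44 without WT-o replicate 1. Low levels in choroid plexus limit the precision there, since Arc had a median under 1 CPM in each arm.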
